A study of Mus musculus with 16 samples.

Results

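The epididymis at gestational day 14 (gd14) was compared with the epididymis at gestational day 12 (gd12). The comparison used the 3 arrays labelled gd14 and the 3 labelled gd12, which are 6 of the 15 epididymis arrays and of 16 arrays in all, and every probe set except controls (45037). All 6 samples were from wild-type male CD-1 mice, an outbred stock, and carried no treatment. The labels place gd12 at Theiler stage 20 and gd14 at Theiler stage 22, both as whole organ excisions. The labels give each of these 6 samples as a pool of 3, while the text on the study design describes a pair of epididymides from 1 animal per sample, each animal from another dam. Both cannot hold, so whether a replicate stands for 1 animal or for 3 is not known. Nothing else states that the samples were separate, and p-values measure only the spread between these samples. The extraction label names a protocol for whole testes. Signal is the scanner software's intensity per probe set, a relative level that is compared between arrays and not between genes, and log2 values are of signal + 16. Gestational days 16 and 18 (gd16, gd18) and postnatal day 2 (pnd2), with 3 arrays each, are given as description only.

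The epididymis is the coiled tube that stores and matures sperm. It forms from the Wolffian duct, an epithelial tube of the embryo that is kept in males because testosterone from the fetal testis acts on the mesenchyme around it. That mesenchyme later builds the connective tissue and the smooth muscle coat, and it signals to the duct by growth factors. Before the organs separate, the Wolffian duct lies against the gonad and the mesonephros, so an early excision can hold cells of either.

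Measures of array quality overlapped between the stages or lay close together. Array medians ran from 110.3 to 122.2 at gd12 and from 122.7 to 125.8 at gd14, and the trimmed mean was 500 on each array. The 3'/5' signal ratio of Gapdh was 4.33 to 6.4. That of Actb was 4.14, 3.62 and 2.62 on gd12 replicates 13, 14 and 15 and 2.62 to 3.12 at gd14. An array correlated with the others of its stage at 0.943 to 0.948 at gd12 and at 0.959 at gd14, and the median standard deviation (SD) of a gene on the log2 scale was 0.296 at gd12 and 0.219 at gd14. On the Wolffian duct list, Epcam and Emx2 had similar signals at both stages, while Calb1 fell and Cdh16 was uneven at gd12. How much duct epithelium each sample held was not tested, and Epcam and Emx2 do not show it. On gd12 replicate 14 Epcam was the highest of the gd12 arrays, while Cdh16 was the lowest. Epcam, an epithelial adhesion protein, had signals of 2873, 3530.2 and 3005 at gd12 and 3173, 3173 and 3450.3 at gd14. Emx2, a transcription factor of the urogenital epithelia, had 2256, 1375 and 1660.3 at gd12 and 1583, 1582 and 1455 at gd14, and neither gene passed the test (adjusted p = 0.818 and 0.639). Markers of the gonad were also present at gd12 and are described at the end, apart from the rest.

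Single gd12 arrays stood apart in some genes. Gd12 replicate 14 was the lowest gd12 array for 44 of 79 genes of the 4 lists of duct and epithelial genes, or 55.7%, against 39.3% of all genes. For 13 of the 79, or 16.5%, it was more than 2-fold below both other arrays, with at least 1 of those at 100 or more, against 2.62% of all genes. Cdh16, a cadherin of the Wolffian duct and kidney tubules, had 1637, 165 and 2965 on gd12 replicates 13, 14 and 15. The same array had the highest signals of Chga, a granule protein of adrenal and nerve cells (11.3, 328 and 62.6), and of Th, the first enzyme of catecholamine synthesis (92.2, 405 and 113). Gd12 replicate 13 had the highest signals of Foxd1, a factor of kidney stroma (1167, 148 and 158), and of Hoxa9, a posterior homeobox gene (7376, 1086 and 2043). At gd14 the liver genes Afp and Alb were highest on replicate 12, with 68.1, 236 and 2580.1 and 89.3, 241 and 922 on replicates 10, 11 and 12. Changes called in these 4 lists are therefore given with and without gd12 replicate 14, and the part of these differences in other results was not tested.

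Matrix genes, mesenchymal regulators and macrophage genes were higher at gd14 than at gd12, and genes of DNA replication and mitosis, of the embryonic growth program and of gonadal cells were lower. In whole organs, fewer cells of a type and less RNA per cell cannot be told apart. Signals are listed in the order of gd12 replicates 13, 14 and 15 and gd14 replicates 10, 11 and 12, and log2 changes are gd14 minus gd12, with a standard error (SE) from the fit to 3 arrays per stage. limma with a Benjamini-Hochberg adjusted p under 0.05 called 4265 probe sets, 9.47% of those tested. Of 18193 genes with a probe set of their own, each represented by its brightest one, 2438 were called, which is 13.4%. They were 1177 higher genes, 6.47% of all, and 1261 lower genes, 6.93% of all. Changes of at least 4-fold made up 122 of the higher and 155 of the lower genes. In 2949 genes all gd14 arrays lay above all gd12 arrays, and in 3028 all lay below. The median log2 difference over all genes was -0.003. A change that starts or ends at a signal near 0 depends on the constant of 16, and where constants of 64 and 1 move it by over 1.5 times, both values stand beside it in place of a fold.

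The number of calls depended on the arrays and on the variance model. Without gd14 replicate 10, 11 or 12 the test called 1274, 1336 or 1341 genes. Without gd12 replicate 13, 14 or 15 it called 2531, 1722 or 2145. When the variance model had no trend with intensity, 708 genes were called, 688 of them in common with the calls above and in the same direction. The gene lists held 476 called genes, of which 207 were called without the trend and 303 with any 1 of the 6 arrays left out. Centring each array on its median gave 939 higher and 1444 lower genes, and centring on its 75th percentile gave 953 and 1580, since the gd14 arrays had a median higher by 0.071 and a 75th percentile higher by 0.082 on the log2 scale. Every gene given below as having risen or fallen passed the test, and it also passed with any 1 of the 6 arrays left out unless the text names the arrays.

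**Figure D1:**
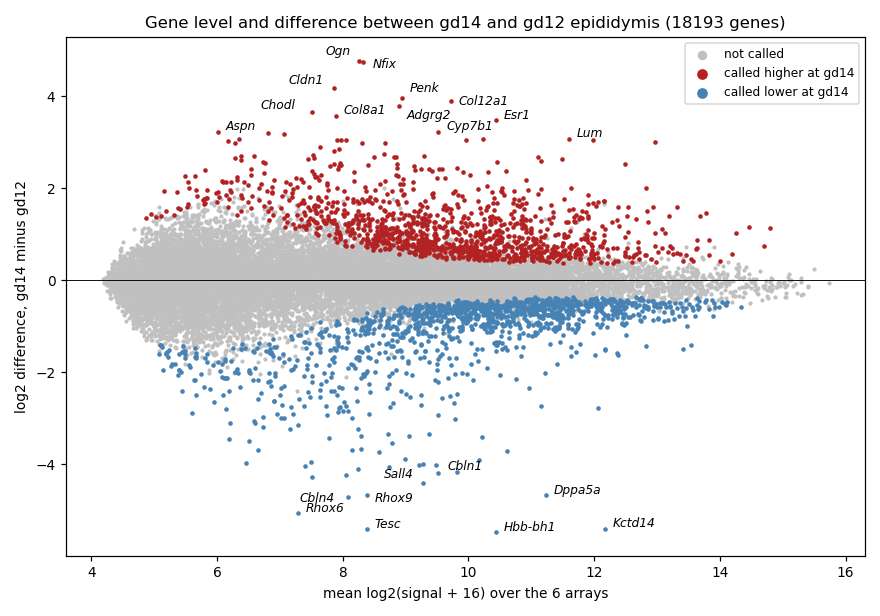
Each point is 1 of 18193 genes, with its mean log2(signal + 16) over the 6 arrays on the horizontal axis and the log2 difference of gd14 minus gd12 on the vertical axis. Red points are the 1177 genes called higher at gd14 and blue points the 1261 called lower, and the names mark genes with the largest changes.

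The largest rises were in genes of secreted matrix, of hormone response and of cell junctions. Ogn, a small leucine-rich proteoglycan, had signals of 12.6, 48.2 and 94.1 at gd12 and 1632, 1484 and 1651 at gd14 (log2 change 4.77 ± 0.4 SE, or 3.9 to 5.32 by the constant, adjusted p = 0.000117). Nfix, a nuclear factor I protein, had 4.86, 72.2 and 113 at gd12 and 1791, 1458 and 1689 at gd14 (log2 change 4.74 ± 0.53 SE, or 3.85 to 5.49 by the constant, adjusted p = 0.000553). The gd12 signals of both genes spread several-fold between arrays, while the gd14 signals lay close together. Cldn1, a claudin of tight junctions, had 19.4, 47.9 and 56.4 at gd12 and 997, 854 and 1085 at gd14 (log2 change 4.18 ± 0.3 SE, or 3.32 to 4.66 by the constant, adjusted p = 5.38e-05). It was not called when all probe sets of the gene were averaged (adjusted p = 0.0718). Penk, the precursor of enkephalin peptides, had 32.9, 139 and 236 at gd12 and 1878, 2005 and 1880.02 at gd14 (log2 change 3.97 ± 0.46 SE, 15.6-fold, adjusted p = 0.000649). Adgrg2, an adhesion receptor of the epididymal duct and efferent ducts, had 24.5, 81.2 and 517 at gd12 and 1943, 1563 and 1815 at gd14 (log2 change 3.8 ± 0.7 SE, 13.9-fold, adjusted p = 0.00746), and without gd12 replicate 14 its rise was log2 3.6 (adjusted p = 0.0351). Its gd12 signals spread widely, its geometric mean at pnd2 was 12398, and it was not called without the intensity trend (adjusted p = 0.0817) or with a robust one (adjusted p = 0.0753).

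Further genes among the 15 with the largest rise had varied roles. Galnt5, a transferase that starts O-linked sugar chains, had 9.52, 65.5 and 8.37 at gd12 and 308, 334 and 333 at gd14 (log2 change 3.2 ± 0.48 SE, or 2.14 to 4.12 by the constant, adjusted p = 0.00256). Its geometric mean was 63.7 at gd16 and 7.3 at gd18, so the high level was seen at gd14 alone among the 5 stages. Fmo2, a flavin-containing monooxygenase, had 73.8, 11.6 and 19.6 at gd12 and 518, 331 and 333 at gd14 (log2 change 3.17 ± 0.46 SE, or 2.24 to 3.84 by the constant, adjusted p = 0.00202), and it reached 1584 at pnd2. Vstm2a, a secreted immunoglobulin-domain protein, had 5.58, 33.8 and 4.78 at gd12 and 241, 182 and 246 at gd14 (log2 change 3.07 ± 0.45 SE, or 1.88 to 4.34 by the constant, adjusted p = 0.00222). Chodl, a membrane lectin, had 57.6, 7.05 and 63.6 at gd12 and 631, 694 and 586 at gd14 (log2 change 3.67 ± 0.44 SE, or 2.76 to 4.35 by the constant, adjusted p = 0.000763).

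Every matrix class that was listed held genes that rose. Over 6 lists together, 76 of 160 measured matrix genes rose, or 47.5% against 6.47% of all genes, and 8 fell. The lists were chosen with earlier results of these data known, so list shares here and below are description and not a test. Counts of every list stand beside 6.47% higher and 6.93% lower over all genes. Among the small leucine-rich proteoglycans, which bind collagen fibrils and growth factors, 7 of 13 rose and none fell, with a median log2 difference of 1.54 over the 13. Dcn (decorin) had 2592, 2160.2 and 3866 at gd12 and 24958, 22248 and 21015 at gd14 (log2 change 3.02 ± 0.19 SE, 8.1-fold, adjusted p = 2.58e-05). Bgn (biglycan) had 2312, 2214 and 2551 at gd12 and 8288, 7305 and 7498 at gd14 (log2 change 1.7 ± 0.11 SE, 3.25-fold, adjusted p = 2.68e-05). Fmod (fibromodulin) had 378, 488 and 456 at gd12 and 1212, 1379 and 1339 at gd14 (log2 change 1.54 ± 0.14 SE, 2.92-fold, adjusted p = 0.000211). In these 3 genes the lowest gd14 array was over 2-fold above the highest gd12 array. Kera (keratocan), better known from the cornea, had 54.05, 10.5 and 28.7 at gd12 and 183, 308 and 258 at gd14 (log2 change 2.58 ± 0.44 SE, or 1.73 to 3.21 by the constant, adjusted p = 0.00494), and at gd18 its geometric mean was 156. The remaining genes that rose were Ogn, Aspn and Lum.

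Of 35 measured collagen genes, 19 rose and 4 fell, with a median log2 difference of 1.17. Col6a1, Col6a2 and Col6a3 encode the chains of collagen VI, a beaded filament around cells, and they rose by log2 3.05, 2.52 and 1.86. Col6a1 had signals of 774, 1468 and 2338 at gd12 and 12268, 11064 and 11586 at gd14, with gd12 replicate 13 lowest. Of the fibrillar collagens, Col1a2 had 15515, 13357 and 16416 at gd12 and 35332, 32649.98 and 33368 at gd14 (log2 change 1.17 ± 0.12 SE, 2.24-fold, adjusted p = 0.000356). Col3a1 had 20618, 16935 and 20536 at gd12 and 42387, 45384 and 39306 at gd14 (log2 change 1.13 ± 0.13 SE, 2.19-fold, adjusted p = 0.000634). Col11a1, a minor chain of fibrils, had 562, 311 and 453 at gd12 and 1267, 1376 and 1419 at gd14 (log2 change 1.62 ± 0.2 SE, 3.07-fold, adjusted p = 0.000788). Col5a1 and Col5a2, which start type I fibrils, rose by log2 1.29 and 1.28. Basement membrane chains Col4a5 and Col4a6, which are neighbours on the X chromosome, rose by log2 1.36 and 1.93. Membrane-spanning collagens Col13a1, Col23a1 and Col25a1 rose by log2 1.87, 2.03 and 2.14. Col8a2, a short-chain network collagen, rose from 99.2, 147 and 282 at gd12 and 1062, 1049 and 1297 at gd14 (log2 change 2.69 ± 0.3 SE, 6.45-fold, adjusted p = 0.00052).

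The collagen genes that fell were of another kind. Col9a3, Col9a1 and Col2a1 belong to the heterotypic fibrils of cartilage, and Col2a1 had low signals at both stages, with 153, 198 and 149.97 at gd12 and 20.9, 46.96 and 24.6 at gd14 (log2 change -1.998 ± 0.39 SE, or -1.29 to -2.48 by the constant, adjusted p = 0.0101). Col9a3 had 597, 3149.6 and 2749 at gd12 and 93.5, 71.8 and 103 at gd14 (log2 change -4.06 ± 0.51 SE, 16.7-fold, adjusted p = 0.000872). Its gd12 replicate 13 was the lowest gd12 array, as it was for the gonad-type genes Dhh and Vnn1. Whether gonadal cells had a part in this fall was not tested. Col9a1 had 1001, 1168 and 1146 at gd12 and 127, 139 and 187 at gd14 (log2 change -2.76 ± 0.19 SE, 6.77-fold, adjusted p = 3.92e-05). Of the 12 genes on the cartilage list 5 fell, or 41.7% against 6.93% of all genes, and 1 rose. Those that fell include Sox5, Sox6 and Sox9, the last also on the list of gonad supporting cells. The remaining 6 were not called, among them Acan, Comp and Matn1, with low signals at both stages. Col18a1, a basement membrane collagen, fell with a log2 change of -0.66 (adjusted p = 0.029) and was no longer called without gd12 replicate 14 or 15 or any 1 gd14 array.

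Elastic fibre and crosslinking genes followed, with 17 of 30 higher and 1 lower (median log2 difference 0.77). Without gd14 replicate 10, 11 or 12 the rises numbered 11, 12 and 12. Lox, the oxidase that starts crosslinks in collagen and elastin, had 295, 369 and 458 at gd12 and 2317, 1884 and 2066 at gd14 (log2 change 2.45 ± 0.17 SE, 5.45-fold, adjusted p = 4.55e-05), and its relative Loxl1 had 449, 379.96 and 356 at gd12 and 1134, 1033 and 1016 at gd14 (log2 change 1.4 ± 0.15 SE, 2.63-fold, adjusted p = 0.000364). Fbln5, a fibulin needed to assemble elastic fibres, had 442, 456 and 343 at gd12 and 2246, 1996 and 2272 at gd14 (log2 change 2.36 ± 0.14 SE, 5.12-fold, adjusted p = 2.56e-05). For these genes no gd12 array came within 2-fold of any gd14 array. Mfap2 and Fbn2, parts of microfibrils, rose by log2 1.6 and 1.25. Ltbp2, Ltbp3 and Ltbp4, which bind latent TGF-beta or microfibrils, rose by log2 2.62 (1.61 to 3.6 by the constant), 1.72 and 1.7. Eln, the elastin gene itself, had 189, 158 and 189.8 at gd12 and 331, 279 and 407 at gd14 (log2 0.85, adjusted p = 0.0448) and lost its call without any 1 of the 6 arrays.

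Of 40 matricellular and adhesive matrix genes, 19 rose and 1 fell (median log2 difference 0.78). Postn, a periostin that binds collagen and integrins, had 1634, 1607 and 1465 at gd12 and 6036, 6885 and 6117 at gd14 (log2 change 2.004 ± 0.11 SE, 4.01-fold, adjusted p = 1.1e-05). Thbs2, a thrombospondin, had 93.1, 66.99 and 77.3 at gd12 and 388, 477 and 724 at gd14 (log2 change 2.48 ± 0.28 SE, 5.59-fold, adjusted p = 0.000608). Has2, the enzyme that makes hyaluronan, had 397, 158 and 310.2 at gd12 and 1348, 1685 and 1555 at gd14 (log2 change 2.43 ± 0.27 SE, 5.38-fold, adjusted p = 0.000544). Its receptor Cd44 rose from 129, 105 and 88.1 at gd12 and 379, 353 and 398 at gd14 (log2 change 1.68 ± 0.24 SE, 3.21-fold, adjusted p = 0.00207). Matn2, Egfl6, Ecm1 and Tnxb rose by log2 2.06, 2.44, 2.01 and 2.004 (the last 0.99 to 3.28 by the constant), and Fn1 (fibronectin) and Vcan (versican) rose less, by 1.03 and 0.7. Smoc1, a calcium-binding basement membrane protein, fell with a log2 change of -1.48 (adjusted p = 0.0182) and lost its call without gd12 replicate 14 or 15 or gd14 replicate 12. Among 10 laminin genes Lama2, the alpha chain of muscle and interstitial basement membranes, was called, with 323, 184 and 187 at gd12 and 1019, 1023 and 977 at gd14 (log2 change 2.09 ± 0.21 SE, 4.26-fold, adjusted p = 0.000321). Of 32 matrix proteases and inhibitors, 13 rose and 2 fell, and the higher count was 8 without gd14 replicate 10 and 9 without gd14 replicate 11. Timp3 and Adamts20 rose by log2 1.42 and 1.35.

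**Figure D2:**
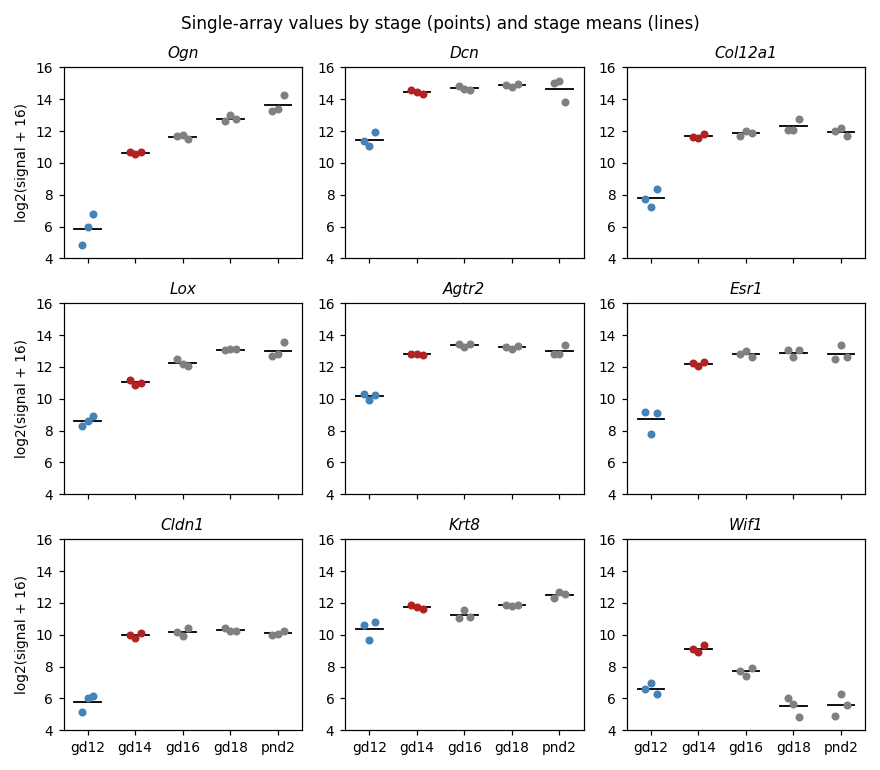
Single-array log2(signal + 16) values of 9 genes at 5 stages, with 3 arrays per stage as points and the stage mean as a line. The 3 gd14 points (red) lie above the 3 gd12 points (blue) in all 9 genes, the Ogn mean is higher at each later stage, and the Wif1 mean is highest at gd14.

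Later stages differed in how these genes continued. Ogn had geometric means of 3192, 7079 and 12886 at gd16, gd18 and pnd2, higher at each step. Aspn likewise had 674, 2149.8 and 2649. Lum had 10668, 10918 and 10489.8, close to its gd14 signals of 9387, 9032 and 8701. Col8a1 was 1150.0, 1189.7 and 386, with pnd2 below gd14. These later values were not tested here.

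Regulators of mesenchyme rose as well. Of 50 mesenchymal transcription factors, 16 rose and 2 fell (median log2 difference 0.49), and without the intensity trend 8 rose and 1 fell. Nfib and Nfia, which like Nfix are nuclear factor I proteins, had signals of 3259, 3148 and 3232 at gd12 and 7556, 8252 and 7519 at gd14 (log2 change 1.27 ± 0.1 SE, 2.41-fold, adjusted p = 8.72e-05) and 3076, 3797 and 3311 at gd12 and 6315, 6924 and 5245 at gd14 (log2 change 0.85 ± 0.13 SE, 1.81-fold, adjusted p = 0.00292). Nfic, the other member of the family measured, had 313, 406 and 430.3 at gd12 and 557, 352 and 567 at gd14 and did not pass the test (log2 0.33, adjusted p = 0.444). Osr2, an odd-skipped factor, had 13.7, 32.8 and 5.12 at gd12 and 255, 144 and 159 at gd14 (log2 change 2.65 ± 0.45 SE, or 1.61 to 3.64 by the constant, adjusted p = 0.0051). Prrx1, a limb and body wall mesenchyme factor, had 1175, 284 and 512 at gd12 and 2274, 2034 and 2473 at gd14 (log2 change 1.98 ± 0.38 SE, 3.96-fold, adjusted p = 0.00913). Meis1, a homeobox partner of Hox proteins, had 2852, 1729 and 2231 at gd12 and 6055, 6703 and 6098 at gd14 (log2 change 1.49 ± 0.16 SE, 2.81-fold, adjusted p = 0.000463). Twist2, Tshz2, Hic1 and Hand2 rose by log2 1.36, 1.31, 1.04 and 1.06. The 2 that fell were Snai2 and Mkx, by log2 -0.47 and -1.57 (adjusted p = 0.0322 and 0.0217). Snai2 lost its call without gd12 replicate 13 or 14 or any 1 gd14 array, and Mkx without gd12 replicate 14 or 15 or gd14 replicate 11 or 12.

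Of 19 genes of steroid receptors and steroid handling 3 rose and 3 fell, with a median log2 difference of 0.005. Esr1, the estrogen receptor alpha, had 560.1, 208 and 547 at gd12 and 4769.8, 4169 and 5001 at gd14 (log2 change 3.48 ± 0.3 SE, 11.1-fold, adjusted p = 0.000141), with gd12 replicate 14 lowest. Nr3c1, the glucocorticoid receptor, had 347, 429 and 539.6 at gd12 and 1342, 1350.0 and 1469 at gd14 (log2 change 1.65 ± 0.17 SE, 3.13-fold, adjusted p = 0.00032). Cyp7b1, a hydroxylase of oxysterols and other steroids, had 281, 173 and 229 at gd12 and 2146, 2432 and 2151 at gd14 (log2 change 3.23 ± 0.18 SE, 9.41-fold, adjusted p = 1.19e-05). The steroid receptors Pgr, Esr2 and Nr3c2 were not called (adjusted p = 0.296, 0.103 and 0.885). The 3 lower genes were Hsd11b2, which inactivates glucocorticoids, and the receptor co-chaperones Fkbp4 and Fkbp5. Hsd11b2 had 1339, 2578 and 3332 at gd12 and 1040.4, 848 and 781 at gd14 (log2 -1.34, adjusted p = 0.0128) and was not called without gd12 replicate 14 or gd14 replicate 11 or 12. Fkbp5, a common androgen and glucocorticoid target, had 1559, 2141 and 2845 at gd12 and 1177, 1125 and 1118 at gd14 (log2 -0.88, adjusted p = 0.0148) and lost its call without any 1 gd14 array. Fkbp4 fell with a log2 change of -0.47 (adjusted p = 0.0434) and was not called without gd12 replicate 13 or 14 or any 1 gd14 array.

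Of 31 peptide hormones and receptors, 9 rose and 1 fell. Agtr2, the type 2 angiotensin receptor, had 1262, 966 and 1204 at gd12 and 7184, 7294 and 6877 at gd14 (log2 change 2.63 ± 0.12 SE, 6.19-fold, adjusted p = 5.02e-06). Npr3 and Npr2, receptors for natriuretic peptides, had 242, 227 and 228 at gd12 and 1243, 1291 and 1327 at gd14 (log2 change 2.39 ± 0.14 SE, 5.25-fold, adjusted p = 2.26e-05) and 294, 203 and 233 at gd12 and 811, 1019 and 689 at gd14 (log2 change 1.72 ± 0.2 SE, 3.29-fold, adjusted p = 0.000704). Ednrb, an endothelin receptor, had 1019, 974 and 489.7 at gd12 and 3012, 2841 and 2761 at gd14 (log2 change 1.84 ± 0.23 SE, 3.59-fold, adjusted p = 0.000967), and Pth1r, the parathyroid hormone receptor, rose by log2 1.32. Gd12 and gd14 arrays did not overlap in any of these genes. The gene that fell was Adm (adrenomedullin), a vessel-relaxing peptide, with 2212, 2596 and 969 at gd12 and 513, 297 and 476 at gd14 (log2 change -2.05 ± 0.33 SE, 4.13-fold, adjusted p = 0.0038). Ramp2, part of its receptor, rose from 1036, 1054 and 1099 at gd12 and 1805, 2266 and 1669.96 at gd14 (log2 change 0.83 ± 0.13 SE, 1.77-fold, adjusted p = 0.00392). Of 30 channel genes 5 rose (16.7%) and 2 fell (6.67%), against 6.47% and 6.93% of all genes. Among the rises was Kcnd3, a voltage-gated potassium channel, with 335, 536 and 886 at gd12 and 3035, 2943 and 2612 at gd14 (log2 change 2.36 ± 0.27 SE, 5.14-fold, adjusted p = 0.000608). Without gd14 replicate 10 or 12 only 2 of these rises were called, and 3 without gd14 replicate 11.

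Retinoic acid genes moved both ways, with 5 of 21 higher and 2 lower. Aldh1a1, which makes retinoic acid, had 6143, 16441 and 13578 at gd12 and 1974, 1363 and 1580.5 at gd14 (log2 change -2.77 ± 0.3 SE, 6.8-fold, adjusted p = 0.000463). Its geometric mean at pnd2 was 13123, back in the range of gd12. A gonadal part in the gd12 signals of Aldh1a1, lowest on gd12 replicate 13, was not tested. Cyp26b1, which degrades retinoic acid and is also a gene of the fetal testis, had 874, 1089.5 and 1403 at gd12 and 259, 246 and 254 at gd14 (log2 change -2.05 ± 0.19 SE, 4.15-fold, adjusted p = 0.000177). Tgm2, a transglutaminase inducible by retinoids, had 2717, 4064 and 4191 at gd12 and 12881, 17944 and 13295 at gd14 (log2 change 2.01 ± 0.18 SE, 4.04-fold, adjusted p = 0.000185). Rarres2, the chemerin precursor, had 188, 83.7 and 129 at gd12 and 1059, 922 and 741 at gd14 (log2 change 2.67 ± 0.27 SE, 6.37-fold, adjusted p = 0.000301). Aldh1a2, the enzyme of mesenchyme, had 7326, 2901 and 4448 at gd12 and 5544, 5195 and 5705 at gd14 and did not pass the test (adjusted p = 0.626). The other 3 higher genes, Aldh1a3, Dhrs3 and Rxra, each lost their call without any 1 gd14 array, and Rxra also without gd12 replicate 14 or 15. The higher count was 10 without gd12 replicate 13 and 2 without any 1 gd14 array.

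Of 22 genes of epithelial keratins and adhesion, 4 rose and 3 fell, against 6.47% and 6.93% of all genes. The rises were keratins of simple epithelia, while Krt5, Krt14, Krt15 and Krt20 were not called, and the falls were desmosome genes. Whole-organ signals do not show which cells changed. Krt8 and Krt18, the paired keratins of simple epithelia, had 1561, 803 and 1755 at gd12 and 3744, 3478 and 3175 at gd14 (log2 change 1.4 ± 0.24 SE, 2.64-fold, adjusted p = 0.00538) and 937, 462 and 919 at gd12 and 2365, 2852 and 2046 at gd14 (log2 change 1.68 ± 0.25 SE, 3.21-fold, adjusted p = 0.00213). Gd12 replicate 14 had the lowest signal in both, and without it the rises were log2 1.06 and 1.35 (adjusted p = 0.00197 and 0.0017). Krt19 had 250.2, 234 and 262 at gd12 and 903, 727 and 848 at gd14 (log2 change 1.67 ± 0.16 SE, 3.17-fold, adjusted p = 0.000273) and Krt7 483, 411 and 669 at gd12 and 1133, 1446 and 1002 at gd14 (log2 change 1.18 ± 0.2 SE, 2.27-fold, adjusted p = 0.00479), with rises of 1.63 and 1.03 without gd12 replicate 14. Krt19 is also on the list of mesothelium, where Upk3b, another mesothelial gene, rose from 704, 682 and 940.2 at gd12 and 1472, 1430.1 and 1349 at gd14 (log2 change 0.87 ± 0.15 SE, 1.83-fold, adjusted p = 0.0047). Pkp2, a plakophilin of desmosomes, had 913, 1129.9 and 860.4 at gd12 and 393, 309 and 276 at gd14 (log2 change -1.53 ± 0.18 SE, 2.89-fold, adjusted p = 0.000691). Dsc2, a desmocollin, had 591, 577 and 424 at gd12 and 253, 260.2 and 264 at gd14 (log2 change -0.98 ± 0.19 SE, 1.97-fold, adjusted p = 0.00991). Without gd12 replicate 14 these log2 changes were -1.41 and -0.91 (adjusted p = 0.00396 and 0.0398). Dsg2, its desmoglein partner, fell with a log2 change of -0.8 (adjusted p = 0.0149), a call lost without gd12 replicate 14 (adjusted p = 0.0546) or gd14 replicate 10 or 12. Epcam and Dsp (desmoplakin) were not called, with log2 differences of 0.06 and -0.08.

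Of 23 tight junction genes 3 rose, all claudins, the strand proteins of these junctions, and 1 fell. The higher count was 4 without gd12 replicate 14, 6 without gd12 replicate 15 and 2 without any 1 gd14 array. Cldn1 rose as given above, and by log2 4.29 without gd12 replicate 14. Cldn11 had 120.4, 149 and 75.9 at gd12 and 386, 353 and 469 at gd14 (log2 change 1.71 ± 0.28 SE, 3.27-fold, adjusted p = 0.00396), and a rise of 1.89 without that array. Cldn8 had 576, 24.1 and 241 at gd12 and 970.3, 1256 and 1263 at gd14 (log2 change 2.68 ± 0.74 SE, 6.41-fold, adjusted p = 0.0471). Without gd12 replicate 14 its rise was log2 1.59 (adjusted p = 0.0187), and it was not called without gd12 replicate 15 or any 1 gd14 array. Cldn4, Cldn7, Cldn6 and Ocln had higher signals on each gd14 array than on any gd12 array and were not called. For Cldn7, with 485, 109 and 679 at gd12 and 839.7, 1141 and 793 at gd14, the log2 difference was 1.4 with all arrays and 0.65 without gd12 replicate 14. For Cldn4 it was 1.72 and 0.73. Cgn (cingulin), a cytoplasmic junction protein, was the lower gene, a call lost without gd12 replicate 14 or gd14 replicate 10 or 11. Tjp1, the junction scaffold, had 6331, 5836 and 6851 at gd12 and 5718, 6265 and 5869.9 at gd14 and was not called (adjusted p = 0.703).

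The Wolffian duct list holds regulators and other genes of the duct. Of its 16 measured genes none rose and 2 fell, with a median log2 difference of 0.05. The 2 are 12.5%, against 6.93% lower over all genes. Etv5, a target of GDNF and FGF signals that is also on the list of gonad supporting cells, had 922, 1098 and 1172 at gd12 and 274, 424 and 385 at gd14 (log2 change -1.53 ± 0.19 SE, 2.9-fold, adjusted p = 0.000788), and a log2 change of -1.51 without gd12 replicate 14. Calb1, a calcium-binding protein of distal tubules and duct, had 1636, 157 and 513 at gd12 and 113, 97.4 and 52.9 at gd14 (log2 -2.41, adjusted p = 0.0439), and was called with all arrays and without gd12 replicate 14 (log2 -3.22, adjusted p = 0.00553) but with none of the other arrays left out. Cdh16, given above for gd12, had 3492, 3468 and 2766 at gd14 and a log2 difference of 1.75, or 0.55 without gd12 replicate 14, and was not called. Ret, the GDNF receptor, was low throughout, with 129, 65 and 69.9 at gd12 and 52.8, 42.6 and 1.74 at gd14. Of 20 epithelial transcription and splicing factors, Gata2 rose and Esrp1 fell, or 5% in each direction against 6.47% and 6.93% of all genes. Gata2, a zinc finger factor of the urogenital tract, had 1871, 707 and 1115 at gd12 and 4056, 4377 and 4206 at gd14 (log2 change 1.87 ± 0.27 SE, 3.66-fold, adjusted p = 0.00193), and a rise of 1.53 without gd12 replicate 14. Esrp1, which directs epithelial splicing, had 752, 896 and 763 at gd12 and 223, 308 and 284 at gd14 (log2 change -1.52 ± 0.18 SE, 2.86-fold, adjusted p = 0.000649), and its geometric mean at pnd2 was 1166. Without gd12 replicate 14 its log2 change was -1.44 (adjusted p = 0.00416). Celf2 and Rbms3, RNA-binding proteins that are not restricted to epithelium, rose by log2 1.99 and 1.33.

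Of 25 genes for secreted epididymal proteins and luminal transport, Adgrg2 and Aqp1 rose and Aqp5 and Cst11 fell. That is 8% in each direction, near the 6.47% higher and 6.93% lower of all genes. Aqp1, a water channel, had 57.2, 74.8 and 91.04 at gd12 and 212, 188 and 202 at gd14 (log2 1.28, adjusted p = 0.0289), a call lost without gd12 replicate 13 or 14 or any 1 gd14 array. Aqp5 had 265, 284 and 318 at gd12 and 77.8, 46.8 and 10.7 at gd14 (log2 change -2.49 ± 0.46 SE, or -1.74 to -3.03 by the constant, adjusted p = 0.00723). Cst11, a cystatin, was low at both stages (69.7, 40.03 and 66.9 at gd12 and 7.95, 1.22 and 18.4 at gd14) and lost its call without any 1 of the 6 arrays.

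**Figure D3:**
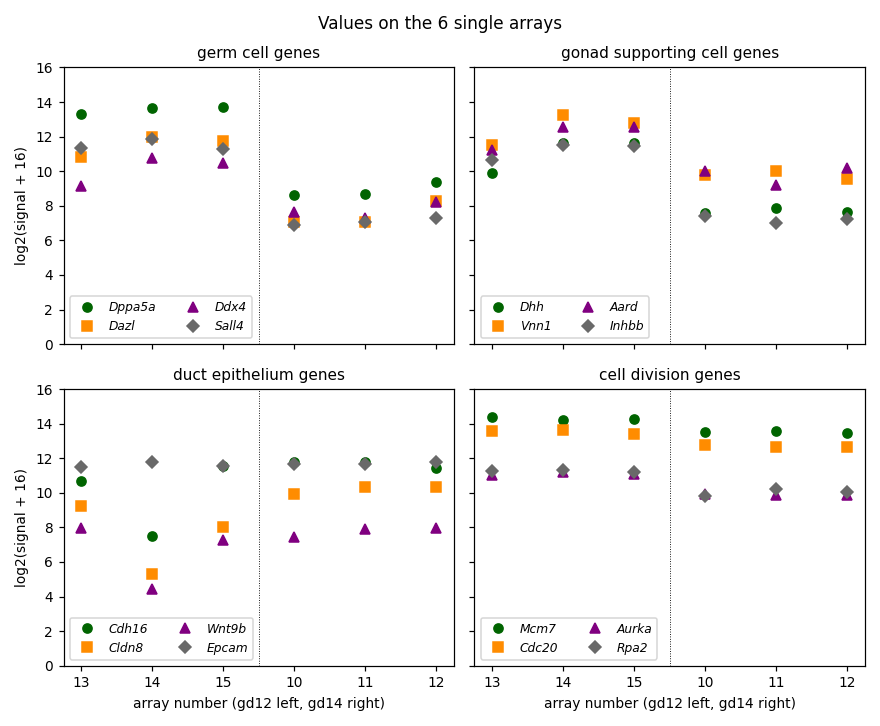
Values of log2(signal + 16) on the 6 single arrays for 4 groups of 4 genes, with gd12 arrays 13, 14 and 15 on the left of each panel and gd14 arrays 10, 11 and 12 on the right. Gd12 array 14 is low for Cdh16, Cldn8 and Wnt9b but not for Epcam, gd12 array 13 is low for Dazl, Ddx4, Dhh, Vnn1 and Aard, and the cell division genes are even across the gd12 arrays.

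Among the signalling families, Wnt pathway genes rose on both the activating and the restraining side. Of 34 Wnt ligands and receptors 9 rose and 4 fell, and of 25 modulators and targets 7 rose and 1 fell. Wnt5a, a non-canonical ligand of mesenchyme, had 1512, 2229.5 and 1983 at gd12 and 6641, 4738 and 5338 at gd14 (log2 change 1.54 ± 0.17 SE, 2.91-fold, adjusted p = 0.000416). Fzd2, Fzd6 and Fzd1, Wnt receptors, rose by log2 1.32, 1.27 and 1.15. Rspo3, which amplifies Wnt signals through Lgr receptors, had 631, 179 and 243 at gd12 and 1772, 1415 and 1983 at gd14 (log2 change 2.43 ± 0.36 SE, 5.39-fold, adjusted p = 0.00229), while the receptor Lgr4 had 5575, 6025 and 5655 at gd12 and 1872, 2111 and 1809.8 at gd14 (log2 change -1.57 ± 0.11 SE, 2.97-fold, adjusted p = 3.91e-05). Wnt inhibitors were higher too. Apcdd1, an inhibitor in the membrane, had 1138, 538 and 1019 at gd12 and 5488, 5535 and 5587 at gd14 (log2 change 2.67 ± 0.23 SE, 6.37-fold, adjusted p = 0.000126). Wif1, a secreted inhibitor also known from Mullerian duct mesenchyme, had 81.8, 108 and 59.6 at gd12 and 523, 471 and 638 at gd14 (log2 change 2.52 ± 0.27 SE, 5.73-fold, adjusted p = 0.000356), and it was 29.3 at gd18. Nkd1, Dkk3 and Sfrp1 rose by log2 1.53, 1.23 and 1.05. Shisa2, which holds Wnt and FGF receptors back, fell with a log2 change of -2.22 (adjusted p = 8.72e-05). The lower count of ligands and receptors was 1 without gd14 replicate 10 and 2 without gd14 replicate 11.

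Of 11 genes on the Mullerian duct list, 5 rose and 1 fell. The Mullerian duct is the female duct, which regresses in males. Amhr2, the receptor for anti-Mullerian hormone, had 6288, 7088 and 8377 at gd12 and 2541, 2652 and 1873 at gd14 (log2 change -1.62 ± 0.16 SE, 3.08-fold, adjusted p = 0.000239), and its geometric mean was 866 at gd16 and 195 at gd18. Amhr2 is also known from gonadal supporting cells. Besides Wif1, the genes that rose were Dach1, Sp7, Mmp2 and Bmpr1a, by log2 1.44, 1.25, 0.7 and 0.54. These 4 calls were all lost without gd14 replicate 10, which left 1 higher gene, and Dach1, Sp7 and Bmpr1a were also lost without some other arrays.

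BMP and TGF-beta genes had 17 of 43 higher and 4 lower. The higher count was 11 without gd14 replicate 10 or 12, 12 without gd14 replicate 11 and 12 without gd12 replicate 14. Inhba, the activin A subunit, which the epididymal duct needs in order to coil, had 117, 375 and 798 at gd12 and 2894, 2908 and 2750.2 at gd14 (log2 change 3.04 ± 0.49 SE, 8.23-fold, adjusted p = 0.0036). Its gd12 replicate 13 was the lowest and the gd14 signals were nearly equal. Gdf10, a BMP-related ligand, had 284, 690.03 and 883 at gd12 and 4052, 3673 and 2617 at gd14 (log2 change 2.57 ± 0.34 SE, 5.92-fold, adjusted p = 0.00125). Tgfb2 and Tgfb3, TGF-beta ligands, had 743, 1030.02 and 1224 at gd12 and 3329.8, 2626 and 3321 at gd14 (log2 change 1.64 ± 0.18 SE, 3.11-fold, adjusted p = 0.000472) and 413, 435 and 610.1 at gd12 and 1653, 1344 and 1348 at gd14 (log2 change 1.56 ± 0.17 SE, 2.95-fold, adjusted p = 0.000499). Smad6, an inhibitor inside the cell that is induced by BMP, and Id4, a BMP target, rose by log2 1.65 and 1.47. The 4 lower genes were Inhbb, Inha, Acvr1c and Amhr2, of which Inhbb and Inha are also on a gonad-type list. Inhbb, the activin B subunit, had 1586, 2959.8 and 2842 at gd12 and 157, 111 and 132 at gd14, opposite in direction to Inhba.

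Insulin-like growth factor and imprinted genes rose in 14 of 28 cases and fell in none (median log2 difference 0.70). Dlk1, an imprinted Notch-like protein of immature mesenchyme, had 507, 1208 and 1238 at gd12 and 5387, 5094 and 6493 at gd14 (log2 change 2.6 ± 0.28 SE, 6.07-fold, adjusted p = 0.000463). Meg3, the noncoding RNA from the same imprinted region, had 6886, 9208 and 9557 at gd12 and 24668, 20585 and 24877 at gd14 (log2 change 1.46 ± 0.15 SE, 2.75-fold, adjusted p = 0.000319). Igfbp2, Igfbp5 and Igfbp6, which bind IGFs, rose by log2 2.37, 1.6 and 2.16. Igf1 had 2249.8, 1295 and 1496 at gd12 and 3637, 2991 and 4190.4 at gd14 (log2 change 1.12 ± 0.2 SE, 2.17-fold, adjusted p = 0.00604), and the receptors Igf1r, Insr and Igf2r rose by log2 0.74, 0.76 and 1.23. Igf2 had 16722, 8626 and 11964 at gd12 and 20389, 21102 and 17712 at gd14 and did not pass the test (adjusted p = 0.0565).

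Of 14 hedgehog genes 4 rose, the ligand Shh and 3 co-receptors, and the ligand Dhh fell. Cdon, Boc and Gas1 bind hedgehog ligands at the cell surface. Gas1 rose by log2 0.89, a call lost without gd12 replicate 14 or 15 or gd14 replicate 10 or 12. Cdon and Boc had 2139, 1954 and 2228 at gd12 and 5919.8, 5952 and 6085 at gd14 (log2 change 1.5 ± 0.1 SE, 2.83-fold, adjusted p = 3.91e-05) and 353, 327 and 406 at gd12 and 848, 737 and 712 at gd14 (log2 change 1.05 ± 0.16 SE, 2.07-fold, adjusted p = 0.00262). Shh had 434, 147 and 161 at gd12 and 666, 888 and 717 at gd14 (log2 1.71, adjusted p = 0.0112), a call lost without gd14 replicate 11. Dhh, the ligand of the fetal testis, is given with the gonad-type genes. Ptch1, receptor and common target of the pathway, had 5356, 11799 and 10603 at gd12 and 7422, 8488 and 7493 at gd14 and did not pass the test (adjusted p = 0.764). FGF, EGF, HGF and PDGF genes had 5 of 40 higher and 4 lower. That is 12.5% and 10%, against 6.47% higher and 6.93% lower over all genes. The higher count was 2 without gd14 replicate 11 or 12 and 3 without gd14 replicate 10, and the lower count was 8 without gd12 replicate 13 and 2 without gd14 replicate 10 or 12. Of the Notch list, 4 of 23 rose, or 17.4%, and 1 fell, or 4.35%. Without gd12 replicate 14 or any 1 gd14 array 2 rose. Hey1, a Notch target, had 2108, 2378 and 1658 at gd12 and 567, 641 and 305 at gd14 (log2 change -2.04 ± 0.25 SE, 4.1-fold, adjusted p = 0.000799), and Notch3, a receptor of vessel walls, had 789, 809 and 968 at gd12 and 1714, 1703 and 1405 at gd14 (log2 change 0.9 ± 0.14 SE, 1.86-fold, adjusted p = 0.00275).

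Axon guidance and planar polarity genes, many of them cues for cell movement in mesenchyme, had 19 of 45 higher and 1 lower (median log2 difference 0.71). Sema3d and Sema3e, secreted semaphorins, had 536, 462 and 469.5 at gd12 and 1809.7, 1776 and 1725 at gd14 (log2 change 1.83 ± 0.12 SE, 3.54-fold, adjusted p = 3.92e-05) and 177, 204 and 169 at gd12 and 638, 702 and 629 at gd14 (log2 change 1.76 ± 0.18 SE, 3.38-fold, adjusted p = 0.00032). Slit2, a repellent that also limits ureteric budding, had 2953, 2756 and 3443 at gd12 and 9393, 8382 and 10011 at gd14 (log2 change 1.6 ± 0.12 SE, 3.03-fold, adjusted p = 7.24e-05). The giant protocadherins Fat4 and Fat3 rose by log2 1.95 and 1.69, and Prickle1 by 0.93. Plxnc1, a semaphorin receptor, had 1751, 3169 and 2891 at gd12 and 1009, 946 and 779.8 at gd14 (log2 change -1.46 ± 0.21 SE, 2.75-fold, adjusted p = 0.00178) and was the lower gene. Of 39 cadherins and adhesion molecules 9 rose and 2 fell. Cdh11, a mesenchymal cadherin, had 3128, 3302 and 3845 at gd12 and 10634, 9344 and 10942 at gd14 (log2 change 1.59 ± 0.12 SE, 3-fold, adjusted p = 6.54e-05). Alcam and Ncam1 rose by log2 1.68 and 1.39, and Itga6, an integrin of epithelial and germ cells, had 2224, 2327 and 2773 at gd12 and 1279, 1227 and 1324 at gd14 (log2 change -0.92 ± 0.12 SE, 1.89-fold, adjusted p = 0.00114).

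**Figure D4:**
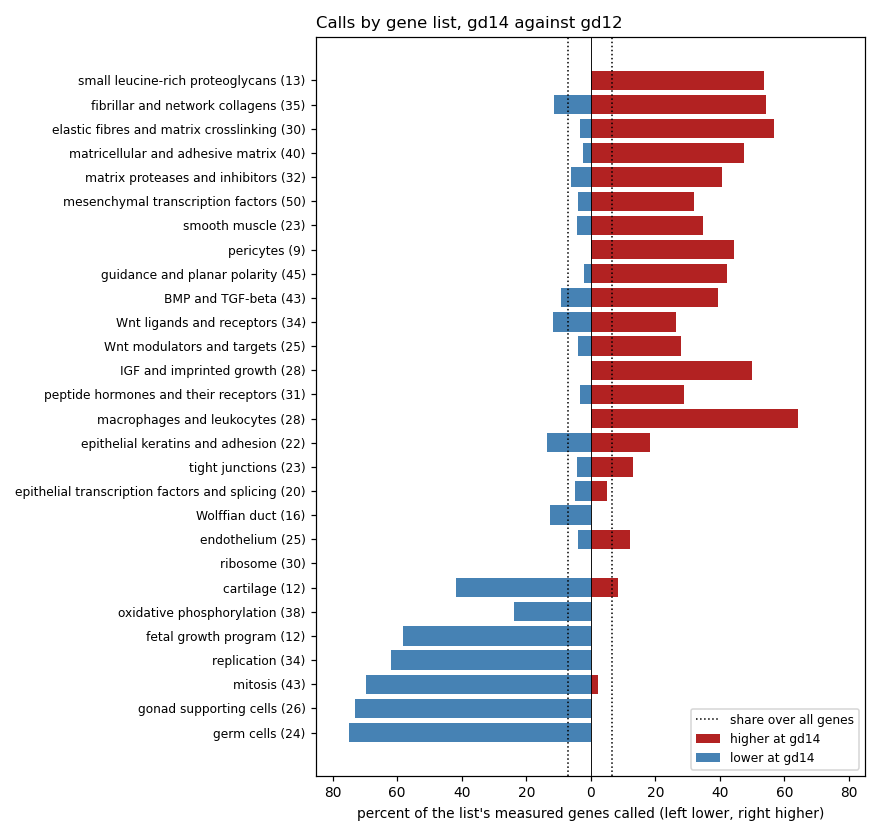
Bars give the percent of each list's measured genes (number in parentheses) called higher (right, red) or lower (left, blue) at gd14, and the dotted lines mark 6.47% higher and 6.93% lower over all genes. Matrix, signalling and macrophage lists extend to the right, and the replication, mitosis, germ cell and gonad supporting cell lists extend to the left. The lists were chosen with earlier results of these data known.

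Smooth muscle genes had 8 of 23 higher and 1 lower (median log2 difference 0.56), and 3 rose without the intensity trend. Acta2, smooth muscle actin, had 4009, 2019 and 1901 at gd12 and 9862, 6409 and 8849 at gd14 (log2 change 1.72 ± 0.26 SE, 3.3-fold, adjusted p = 0.00265). Tagln (transgelin) had 427, 193 and 129 at gd12 and 1846, 975 and 1275 at gd14 (log2 change 2.49 ± 0.37 SE, 5.61-fold, adjusted p = 0.00217). Mylk, the kinase that activates contraction, had 1789, 2402 and 2509.5 at gd12 and 5698, 5316 and 6105 at gd14 (log2 change 1.36 ± 0.14 SE, 2.57-fold, adjusted p = 0.000321). The gene that fell was Ppp1r14a, an inhibitor of myosin phosphatase, by log2 -0.86 (adjusted p = 0.0211), and its call was lost without gd12 replicate 14 or any 1 gd14 array. Among 9 pericyte genes 4 rose and none fell, including Pdgfrb with 1911, 1343 and 1666 at gd12 and 3185, 3301 and 2888 at gd14 (log2 change 0.94 ± 0.14 SE, 1.91-fold, adjusted p = 0.00234). The remaining higher ones were Kcnj8, Notch3 and Abcc9, the last not called without gd14 replicate 10 or 12. Endothelial genes had 3 of 25 higher (12%) and 1 lower (4%), against 6.47% and 6.93% of all genes. Their median log2 difference was 0.03. Kdr, the main VEGF receptor, had 3501, 2944 and 2360.2 at gd12 and 3981, 3760.01 and 3549 at gd14 (adjusted p = 0.147). Lyve1, a hyaluronan receptor of lymphatic vessels and some macrophages, had 35.9, 59.5 and 68.5 at gd12 and 239, 343 and 261 at gd14 (log2 change 2.09 ± 0.33 SE, 4.25-fold, adjusted p = 0.00348).

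Macrophage genes rose in 18 of 28 cases and fell in none (median log2 difference 1.22), against 6.47% higher over all genes. With any 1 array left out the higher count was 12 to 20, and it was 8 without the intensity trend. Csf1r, the receptor on which most macrophages depend, had 2573, 1023 and 1387 at gd12 and 4562, 3855 and 4703 at gd14 (log2 change 1.49 ± 0.27 SE, 2.81-fold, adjusted p = 0.00648). Cx3cr1, the fractalkine receptor, had 374, 94.7 and 211 at gd12 and 1143, 879 and 1059 at gd14 (log2 change 2.28 ± 0.37 SE, 4.85-fold, adjusted p = 0.0037). Mrc1, the mannose receptor of resident macrophages, had 714, 236 and 251 at gd12 and 1944, 1646 and 1543 at gd14 (log2 change 2.23 ± 0.34 SE, 4.69-fold, adjusted p = 0.00271). In each of these genes gd12 replicate 13 was the highest gd12 array and all gd14 arrays lay above it. F13a1, a coagulation factor made by macrophages, had 164, 212 and 200.1 at gd12 and 968, 753 and 1381 at gd14 (log2 change 2.3 ± 0.23 SE, 4.92-fold, adjusted p = 0.000281). Ctss, C1qc and Ptprc rose by log2 1.92, 2.03 and 1.77. Summed over the list, signal was 8677 to 15007 at gd12 and 21232 to 27658 at gd14, and it stayed between 20336 and 25161 on the later arrays. Of the complement list, 3 of 18 rose, or 16.7% against 6.47% of all genes. The largest rise was that of C1s1, a protease of the classical pathway, with 237, 149.8 and 334 at gd12 and 1536, 1608 and 1604 at gd14 (log2 change 2.71 ± 0.24 SE, 6.53-fold, adjusted p = 0.000142).

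Of the 15 erythroid genes measured 4 fell, or 26.7% against 6.93% of all genes, and none rose. Without gd14 replicate 11 the lower count was 2. Hbb-bh1 and Hba-x, the embryonic globins of yolk sac red cells, had 17100.5, 12069 and 3784 at gd12 and 159, 279 and 157 at gd14 (log2 change -5.48 ± 0.45 SE, 44.5-fold, adjusted p = 0.000106) and 4743, 4470.1 and 2676 at gd12 and 267, 546 and 284 at gd14 (log2 change -3.41 ± 0.28 SE, 10.6-fold, adjusted p = 0.000105). Hbb-y, also embryonic, had 42099, 37363 and 34996 at gd12 and 28811, 34835 and 25264 at gd14 and was not called (adjusted p = 0.169). It had reached 3064 at gd16.

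Most listed genes of DNA replication and mitosis fell, and most of these falls were under 2-fold. Of 34 replication genes 21 fell and none rose, with a median log2 difference of -0.62 over the list. Of 43 mitosis genes 30 fell and 1 rose, with a median of -0.67. Together 51 of 77 genes were lower, or 66.2% against 6.93% of all genes. These lists too were chosen with earlier results of these data known. The falls ran from 1.42-fold to 3.13-fold among replication genes and from 1.34-fold to 2.64-fold among mitosis genes. Without the intensity trend 5 replication and 7 mitosis genes were called lower. The lower count of mitosis genes was 17 without gd14 replicate 11, 20 without gd14 replicate 10 or 12, and 23 or more without any 1 gd12 array. The gene that rose was Cdc25b, a phosphatase that starts mitosis, by log2 0.83 (adjusted p = 0.0265), a call lost without gd12 replicate 13 or 14 or any 1 gd14 array.

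Among replication genes, Mcm7, Mcm2 and Mcm10 belong to the helicase that unwinds origins and its loading. Mcm7 had 21011, 19223 and 19674 at gd12 and 11527, 12103 and 11125 at gd14 (log2 change -0.78 ± 0.11 SE, 1.72-fold, adjusted p = 0.00149). Mcm10 had 1901, 1925 and 1919 at gd12 and 815, 924 and 934 at gd14 (log2 change -1.09 ± 0.11 SE, 2.13-fold, adjusted p = 0.000352). Rpa2, which coats single-stranded DNA, had 2464, 2572 and 2386 at gd12 and 876, 1166 and 1043 at gd14 (log2 change -1.26 ± 0.13 SE, 2.4-fold, adjusted p = 0.00032). Within each stage these signals differed little, and the stages did not overlap. Rrm2, a subunit of the enzyme that makes deoxynucleotides, fell with a log2 change of -0.93 and Pcna, the polymerase clamp, with one of -0.6. Ung, which removes uracil from DNA, had 4831, 8829.7 and 4141 at gd12 and 1676, 1687 and 2009 at gd14 (log2 change -1.64 ± 0.23 SE, 3.13-fold, adjusted p = 0.00184). Among mitosis genes, Aurka, a spindle kinase, had 2117, 2329 and 2203 at gd12 and 975, 926 and 940.2 at gd14 (log2 change -1.21 ± 0.11 SE, 2.32-fold, adjusted p = 0.000172). Cdc20, which activates the anaphase-promoting complex, had 12383, 12821 and 10986 at gd12 and 6857, 6347 and 6431 at gd14 (log2 change -0.88 ± 0.11 SE, 1.84-fold, adjusted p = 0.000809). Ccnb2, Bub1b, Cenpf and Plk1 fell with log2 changes of -0.96, -0.91, -0.94 and -0.91. Mki67, a widely used marker of cycling cells, had 9869.8, 9028 and 10747 at gd12 and 7793, 9367 and 8731 at gd14 and was not called (adjusted p = 0.382). Of the 51 lower genes 26 had a higher mean at gd16 than at gd14.

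Promoters of these genes are shown because the 2 lists had different letters before their start sites. Replication genes are known targets of E2F factors, and mitosis genes of the complex that binds the cell cycle homology region (CHR), often with CCAAT boxes nearby. Windows of 250 bases before the start were taken from RefSeq sequences on GRCm38.p6 and searched on both strands. They were found for 29 replication genes (32 windows), 36 mitosis genes (38 windows) and 27025 genes in all (32851 windows). The E2F letters TTTGGCGC or TTTCCCGC were in 5 of 32 replication windows (15.6%), in none of 38 mitosis windows and in 1.3% of all windows. The CHR letters TTTGAA were in 12 of 38 mitosis windows (31.6%), in 6.25% of replication windows and in 16% of all. The letters CCAAT were in 71.1% of mitosis windows, 59.4% of replication windows and 33.8% of all. No motif searched is contained in another. The genes printed next were picked as holding these letters. The 150 bases before the start of 4 genes read, 5′ to 3′ on the gene's strand, with the E2F letters of the first pair and the CHR and CCAAT letters of the second pair in capitals (reverse complements GCGCCAAA and ATTGG included):
Mcm6, chr1:128359706-128359855, minus strand: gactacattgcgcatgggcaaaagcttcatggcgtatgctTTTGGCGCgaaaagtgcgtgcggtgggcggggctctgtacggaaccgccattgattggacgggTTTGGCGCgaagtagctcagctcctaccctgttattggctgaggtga
Mcm5, chr8:75109359-75109508, plus strand: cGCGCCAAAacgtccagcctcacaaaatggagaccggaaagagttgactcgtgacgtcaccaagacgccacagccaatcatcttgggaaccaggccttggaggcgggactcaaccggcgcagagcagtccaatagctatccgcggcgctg
Cdk1, chr10:69352913-69353062, minus strand: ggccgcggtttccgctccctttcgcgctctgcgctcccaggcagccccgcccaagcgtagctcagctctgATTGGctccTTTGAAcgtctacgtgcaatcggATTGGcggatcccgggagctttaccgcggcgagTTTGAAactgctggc
Cdc20, chr4:118437344-118437493, minus strand: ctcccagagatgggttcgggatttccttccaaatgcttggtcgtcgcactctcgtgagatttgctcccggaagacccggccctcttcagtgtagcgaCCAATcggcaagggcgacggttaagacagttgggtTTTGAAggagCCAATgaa
Mcm6 and Mcm5, helicase subunits, fell with log2 changes of -0.62 and -0.51 (adjusted p = 0.0116 and 0.0183). Cdk1, the kinase of mitotic entry, fell with a log2 change of -0.54 (adjusted p = 0.0205). The calls of Mcm6 (without gd14 replicate 10 or 11), Mcm5 (without gd12 replicate 14 or any 1 gd14 array) and Cdk1 (without gd12 replicate 15 or gd14 replicate 11 or 12) were each lost with an array left out. Of 5 replication genes with the E2F letters 4 were lower, Mcm5, Mcm6, Mcm7 and Cdc6, and Pola1 was not called. Over the whole replication list 61.8% were lower, so these 5 genes do not set the letters apart. Among mitosis genes 9 of 11 with the CHR letters were lower and 17 of 25 without them. A match describes the letters only, and no factor's binding was measured.

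**Figure D5:**
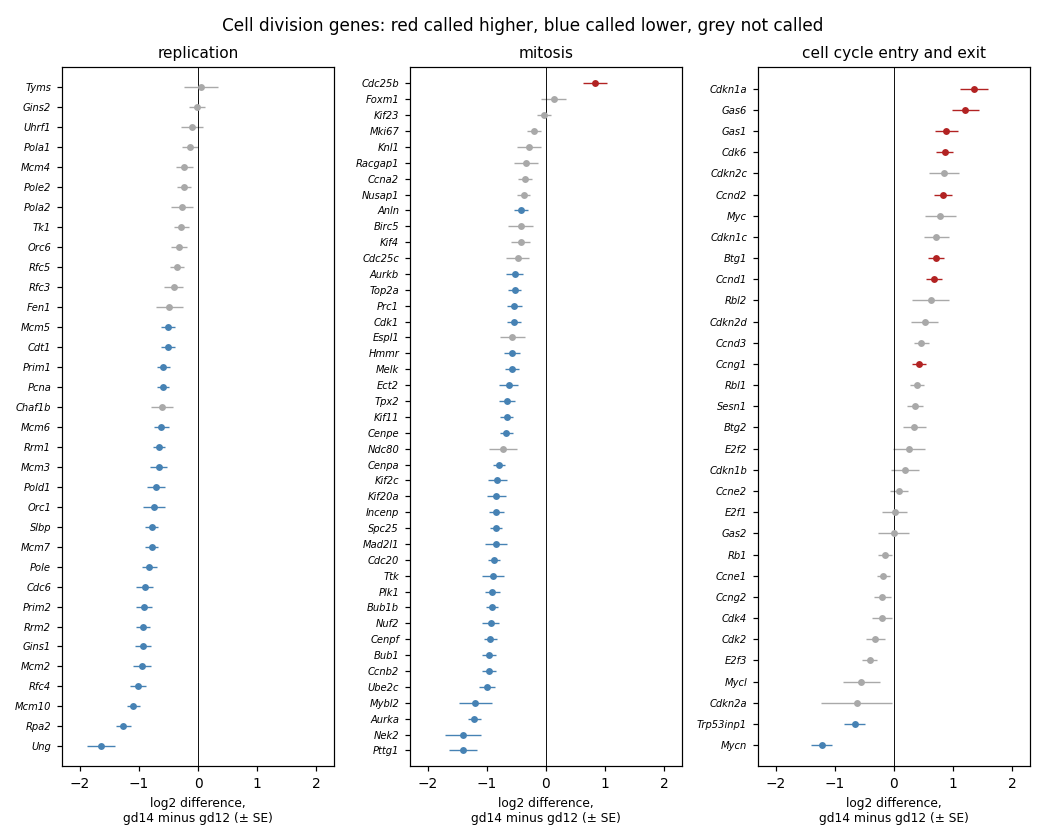
Log2 difference of gd14 minus gd12 with its SE for each measured gene of the lists replication, mitosis, and cell cycle entry and exit, from 3 arrays per stage. Blue points are called lower (21 and 30 in the first lists), red points called higher and grey points not called, and the third list lies mostly to the right of 0.

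Genes of cell cycle entry and exit did not follow them, with 8 of 32 higher and 2 lower (median log2 difference 0.35). Cdkn1a, the p21 inhibitor, had 702, 402 and 852 at gd12 and 1625, 1834 and 1427 at gd14 (log2 change 1.36 ± 0.24 SE, 2.56-fold, adjusted p = 0.0057). The D cyclins Ccnd1 and Ccnd2, which act early in the cycle, rose by log2 0.68 and 0.83, and their kinase Cdk6 by 0.86. Without gd14 replicate 10 there were 5 higher genes, and none of the 8 was called without the intensity trend.

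Genes of the early embryonic growth program fell in 7 of 12 cases, and none rose (median log2 difference -0.95). Lin28a, which blocks the let-7 microRNAs, had 290.01, 399 and 392 at gd12 and 94.3, 50.7 and 77.5 at gd14 (log2 change -2.08 ± 0.3 SE, 4.22-fold, adjusted p = 0.002). Trim71, a let-7 target expressed in early embryos and germ cells, had 592, 727 and 569 at gd12 and 59.4, 71.2 and 108 at gd14 (log2 change -2.78 ± 0.26 SE, 6.87-fold, adjusted p = 0.000202). Igf2bp1, an RNA-binding protein of fetal tissue, had 1229.9, 1234 and 1259 at gd12 and 547, 735 and 355 at gd14 (log2 change -1.22 ± 0.22 SE, 2.33-fold, adjusted p = 0.00685). Mycn had 2661, 2725 and 4204 at gd12 and 1324, 1453 and 1225 at gd14 (log2 change -1.22 ± 0.17 SE, 2.33-fold, adjusted p = 0.00174). Lin28a and Trim71 are also expressed in germ cells, whose genes fell on the same arrays, and that part was not tested. Hmga2 had 35425, 23184 and 24199 at gd12 and 20977, 22485 and 14909 at gd14 and was not called (adjusted p = 0.164). It was 6796 at gd16 and 829 at pnd2. Of 19 Sox and Hmg factors 6 fell and 2 rose, and Hmgb3, a chromatin protein, had 11734, 13374 and 12046 at gd12 and 7426, 7542 and 7852 at gd14 (log2 change -0.7 ± 0.1 SE, 1.62-fold, adjusted p = 0.00245). Of 22 genes of DNA methylation and chromatin 5 fell (22.7%) and 3 rose (13.6%), against 6.93% and 6.47% of all genes. Without gd12 replicate 14 or gd14 replicate 10 or 12, 1 in each direction was called. Dnmt3a, a DNA methyltransferase, had 2694, 2602 and 3153 at gd12 and 4369, 4101 and 4473 at gd14 (log2 change 0.62 ± 0.11 SE, 1.53-fold, adjusted p = 0.00683). Hells, a chromatin remodeller of dividing cells, had 3972, 6747 and 5268 at gd12 and 1639, 2004 and 2066 at gd14 (log2 change -1.45 ± 0.18 SE, 2.74-fold, adjusted p = 0.000841).

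Genes of oxidative phosphorylation had 9 of 38 lower and none higher, with a median log2 difference of -0.33. Cycs (cytochrome c) had 13040.1, 15691 and 11471 at gd12 and 7223, 7617 and 7236 at gd14 (log2 change -0.85 ± 0.13 SE, 1.8-fold, adjusted p = 0.00251). The lower count was 3 without any 1 gd14 array, 14 with 75th percentile centring, and 0 without the intensity trend. Ribosomal protein genes gave no call among 30, with a median log2 difference of -0.03.

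Hox genes, which set position along the body, had 6 of 33 higher and 2 lower (median log2 difference 0.62). Hoxc8 had 2787, 1648 and 2141 at gd12 and 6628, 6671 and 7085 at gd14 (log2 change 1.66 ± 0.17 SE, 3.15-fold, adjusted p = 3e-04), and Hoxc4 had 956, 635 and 789 at gd12 and 1658, 1552 and 1815 at gd14 (log2 change 1.08 ± 0.16 SE, 2.11-fold, adjusted p = 0.00209). Hoxd9 had 2632, 3728 and 3400.1 at gd12 and 1067, 1014 and 969 at gd14 (log2 change -1.65 ± 0.14 SE, 3.13-fold, adjusted p = 0.000126), and Hoxd8 fell with a log2 change of -0.52 (adjusted p = 0.0482), a call lost without gd12 replicate 14 or 15 or any 1 gd14 array. Hoxa9 was uneven at gd12, as given above, and had 8096, 8413 and 7784 at gd14, with log2 1.66 and adjusted p = 0.0734. Without gd12 replicate 13 its difference was log2 2.43 and passed (adjusted p = 0.000281). The higher count was 11 without gd12 replicate 13, 4 without gd12 replicate 15 and 2 without any 1 gd14 array. Hoxa7, Hoxb3, Hoxb2 and Hoxc5, the remaining higher genes, each lost their call without any 1 gd14 array.

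Genes of gonadal cells formed a separate group at gd12. In the 3 gonad-type lists 39 of 60 distinct genes fell and 1 rose, and they made up 3.09% of all lower calls but 29 of the 155 that fell at least 4-fold. Summed signal of the germ cell list was 26866 to 40914 at gd12, 3018 to 3889 at gd14 and 1493 to 2175 later. That of the gonad supporting cell list was 24116.5 to 45244 at gd12, 9199 to 10195 at gd14 and 6612 to 11691 later. That of the list of steroid-making cells was 11794 to 13696 at gd12, 7692.5 to 11129.5 at gd14 and 5130 to 14383 later. The mean log2 value of this last list overlapped between the stages, with 8.056 to 8.366 at gd12 and 7.65 to 8.419 at gd14. Whether gonadal tissue was carried along in the gd12 excisions was not tested, and a loss of such cells and a fall within them cannot be told apart.

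Of 24 germ cell genes 18 fell and none rose (median log2 difference -2.55). Dppa5a, a gene of pluripotent and primordial germ cells, had 10013, 13097 and 13524 at gd12 and 378, 399 and 645 at gd14 (log2 change -4.67 ± 0.2 SE, 25.5-fold, adjusted p = 2.89e-06). Dazl, an RNA-binding protein needed by germ cells, had 1768, 3959 and 3409.7 at gd12 and 119.6, 116 and 299.6 at gd14 (log2 change -4.02 ± 0.36 SE, 16.3-fold, adjusted p = 0.000172). Ddx4, the germ cell helicase, had 557, 1718 and 1413 at gd12 and 186, 141 and 279.5 at gd14 (log2 change -2.41 ± 0.38 SE, 5.33-fold, adjusted p = 0.0032). Pou5f1, the pluripotency factor, had 426, 601 and 496 at gd12 and 80.5, 88.97 and 77.1 at gd14 (log2 change -2.4 ± 0.24 SE, 5.29-fold, adjusted p = 3e-04). Every gd14 array lay below every gd12 array in these genes, and the gd14 signals of Dazl and Ddx4 were above their geometric means at gd16, 15.2 and 25.4. Prdm14, a regulator of primordial germ cells outside the lists but among the 15 largest falls, had 499, 989 and 601 at gd12 and 24.8, 54.2 and 8.75 at gd14 (log2 change -4.05 ± 0.42 SE, or -3.004 to -4.8 by the constant, adjusted p = 0.000339). Rhox6 and Rhox9, X-linked homeobox genes of germ cells, fell with log2 changes of -5.07 and -4.66, or of -3.67 to -6.25 and -3.91 to -5.02 by the constant. Kit, Prdm1 and Mael did not pass the test, nor did Tdrd1, Stra8 and Sycp3.

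Of 26 gonad supporting cell genes 19 fell and none rose (median log2 difference -1.99). Dhh, made by Sertoli cells, had 932, 3161 and 3129 at gd12 and 176, 219.6 and 187 at gd14 (log2 change -3.34 ± 0.39 SE, 10.1-fold, adjusted p = 0.000645). Nr5a1, the factor that specifies gonad and adrenal, had 617, 1044 and 1172 at gd12 and 100.1, 60.5 and 94.1 at gd14 (log2 change -3.22 ± 0.28 SE, 9.34-fold, adjusted p = 0.000142). Sox9, the testis-determining effector that is also a gene of cartilage, had 1455, 874 and 1044 at gd12 and 338, 334 and 329 at gd14 (log2 change -1.67 ± 0.19 SE, 3.19-fold, adjusted p = 0.000553). Lhx9, a factor of the gonad primordium, had 2771, 5349.5 and 3801 at gd12 and 258, 269 and 109 at gd14 (log2 change -4.17 ± 0.32 SE, 18-fold, adjusted p = 7.77e-05). Vnn1, a pantetheinase of Sertoli cells, had 2934, 9855 and 7035 at gd12 and 880.5, 1026 and 729.8 at gd14 (log2 change -2.73 ± 0.35 SE, 6.66-fold, adjusted p = 0.00101). The defining genes were not all present. Amh, the hormone of Sertoli cells, had 5.28, 17.4 and 32.8 at gd12 and 14.1, 9.41 and 3.92 at gd14, and Sry 64.3, 7.6 and 22.8 at gd12 and 59.5, 13.03 and 62.2 at gd14, below the array medians at both stages. Wt1, a factor of gonad, mesothelium and nephron, had 1944, 1646 and 1719 at gd12 and 1558, 1705 and 1738 at gd14 and did not pass the test (adjusted p = 0.75).

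Of 12 measured genes of steroid-making cells 4 fell and 1 rose. Mc2r, the receptor for adrenocorticotropin, had 995, 704 and 602 at gd12 and 355, 306 and 360.4 at gd14 (log2 change -1.11 ± 0.2 SE, 2.16-fold, adjusted p = 0.00676). Cyp17a1, an enzyme of androgen synthesis, had 15.8, 131 and 111 at gd12 and 949, 302 and 218 at gd14 (log2 2.31, adjusted p = 0.0477). Its gd14 replicate 10 stood above the other gd14 arrays, and the call was lost without any 1 of the 6 arrays.

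The gd12 arrays also differed over all genes of at least 4-fold change, most of them not on a gonad-type list. Gd12 replicate 13 was the lowest gd12 array for 90 of the 155 genes that fell at least 4-fold, or 58.1%, against 30.8% of all genes. Among the 122 genes that rose at least 4-fold, gd12 replicate 14 was the lowest in 64, or 52.5%, against 39.3% of all genes. Genes described elsewhere, among them Aldh1a1, Hsd11b2 and Gstm2, also had gd12 replicate 13 lowest, and a gonadal part in their falls was not tested. Other genes with the largest falls were not on a gonad-type list. Kctd14, a potassium channel tetramerization domain protein, had 33925, 28786 and 27579 at gd12 and 637, 732 and 714 at gd14 (log2 change -5.4 ± 0.12 SE, 42.3-fold, adjusted p = 1.22e-08). Tesc (tescalcin), a calcium-binding protein first found in the early testis, had 905, 3383 and 3311 at gd12 and 18.4, 84.1 and 23.3 at gd14 (log2 change -5.41 ± 0.52 SE, or -4.46 to -5.98 by the constant, adjusted p = 0.000253), and it was not called when probe sets that can match several transcripts were left out (log2 -1.04, adjusted p = 0.312). Cbln1, a cerebellin like Cbln4 of the gonad list, had 1789, 5288 and 3185 at gd12 and 158, 114 and 211 at gd14 (log2 change -4.18 ± 0.34 SE, 18.2-fold, adjusted p = 0.000105). Cpa1, a carboxypeptidase of the pancreas, had 1071, 618 and 733 at gd12 and 59.4, 22.3 and 8.34 at gd14 (log2 change -4.28 ± 0.41 SE, or -3.21 to -5.06 by the constant, adjusted p = 0.000255).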

How the data were processed

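The 6 gd12 and gd14 arrays were taken from the deposited value table, which gives 1 linear intensity (signal) per probe set and array. The authors made it with GCOS, the Affymetrix scanner software, per the submitters' processing notes, which state no version or signal method. Per the labels, RNA went through 2 rounds of amplification, which favours 3' ends. Values were taken as log2(signal + 16), with no further normalization and no filter on low values, so signals well below 16 are not resolved. Of 45101 probe sets, 64 were controls. In the platform annotation 34945 had 1 gene symbol, 932 had more, and 9160 did not appear, and each of 18193 genes was represented by its brightest single-symbol probe set. The comparison used limma 3.58.1 under R 4.3.3 (lmFit, then eBayes with an intensity trend, tested on simulated data), adjusted by Benjamini-Hochberg over 45037 probe sets and called at an adjusted p under 0.05. Genes named are the 15 per direction with the largest change among called genes whose stages did not overlap and whose mean at the higher stage reached the array middle, and members of 59 gene lists. The members and lists were chosen with earlier results of these data known. Alternatives were other arrays in the fit, quantile normalization, centring on the median or 75th percentile, constants of 1 and 64, filters, other probe sets per gene, other variance models, array weights, stricter calls and each array left out. With 3 arrays per stage, their number limits the precision.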

Additional observations from a re-analysis of the deposited data

How the results depend on the processing

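Counts of called probe sets and genes were 4265 and 2438. They moved by over 1.5 times to 1993 and 1160 with all 15 epididymis arrays in the fit, to 1340 and 708 without the intensity trend, to 1840 and 1133 at an adjusted p under 0.01, to 2024 and 1087 for changes of at least 2-fold, and to 619 and 398 with limma's treat against a 1.5-fold change. The last 3 are stricter by construction. With pnd2 replicate 3 left out of the wider fit its counts were 5499 and 3057, so the drop with 15 arrays rests on that array, and the cause was not tested for the fit without a trend. With single arrays left out they ran from 2101 to 4404 and from 1274 to 2531, lowest without gd14 replicate 10. The other alternatives stayed within 1.5 times, between 1902 and 3057 genes, but not always with the same genes. Averaging a gene's probe sets called 1902, and 1537 of these were among the 2438 in the same direction, or 63%, while the remaining ones of these alternatives shared 90.2% or more. Of 1543 called genes with over 1 probe set, 508 had another one called in the same direction. For the 30 genes of largest change, 686 of 690 refits kept direction and call, and the 4 exceptions are given with Cldn1, Adgrg2 and Tesc. No paired analysis was possible because the labels number the 6 arrays 10 to 15, with no number shared between the stages. Changes that start or end at signals near 0 depend on the constant of 16, and constants of 1 or 64 moved 37 of the 476 called list genes by over 1.5 times.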

Other observations

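Several metabolic and stress genes moved as well. Of the 4 listed glutathione transferases, which detoxify reactive compounds, 3 fell and Gstt1 was not called. Gstm1 had signals of 3814, 5621 and 6068 at gd12 and 1508, 1384 and 1416 at gd14 (log2 change -1.81 ± 0.16 SE, 3.5-fold, adjusted p = 0.000172), and Gstm2 1920.5, 4809.6 and 5163 at gd12 and 852, 808 and 772 at gd14 (log2 change -2.14 ± 0.3 SE, 4.41-fold, adjusted p = 0.00181). Gsta4 fell with a log2 change of -0.72 and the peroxidase Gpx1 with one of -0.57. Of 25 genes of metal and redox handling 5 rose and 5 fell, and Moxd1, a monooxygenase related to dopamine hydroxylase, was among the rises with 643, 160.1 and 614 at gd12 and 3524, 4254 and 2808 at gd14 (log2 change 3.06 ± 0.42 SE, 8.36-fold, adjusted p = 0.00149). Without any 1 gd14 array 2 rises were called.

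Immediate early genes had 4 of 22 higher and 1 lower. Klf6 had 1059, 1025 and 799.9 at gd12 and 2145, 1956 and 2573 at gd14 (log2 change 1.2 ± 0.15 SE, 2.29-fold, adjusted p = 0.000893) and Jun 1008, 713 and 1261 at gd12 and 1933, 2339.5 and 1841 at gd14 (log2 change 1.05 ± 0.19 SE, 2.08-fold, adjusted p = 0.00723), while Dnajb1, a heat shock protein, fell with a log2 change of -0.54 (adjusted p = 0.0311), a call lost without gd12 replicate 13 or 14 or any 1 gd14 array. Of 19 genes of antigen presentation and interferon response 1 rose and 2 fell. These are 5.26% and 10.5%, near the 6.47% higher and 6.93% lower of all genes. Ifitm1, a membrane protein of early germ cells and interferon response, had 5056, 5438 and 3922 at gd12 and 1309.8, 1043 and 1169.7 at gd14 (log2 change -2.01 ± 0.14 SE, 4.03-fold, adjusted p = 5.28e-05), and Bst2 (tetherin) had 142, 221 and 251 at gd12 and 15.04, 7.68 and 5.52 at gd14 (log2 change -3.1 ± 0.41 SE, or -1.85 to -4.37 by the constant, adjusted p = 0.00127). Of 28 genes of lipid and steroid metabolism 7 rose and 3 fell, with Apoe, a lipid carrier, at 1042, 931 and 989 at gd12 and 3499, 2097 and 3049.8 at gd14 (log2 change 1.5 ± 0.17 SE, 2.83-fold, adjusted p = 0.000631), and the higher count was 4 without any 1 gd14 array. Chemokine genes had 2 of 23 higher and 2 lower, or 8.7% in each direction, near the shares over all genes. Ackr3, a scavenger receptor for Cxcl12, had 1084, 791 and 705 at gd12 and 1913, 1895 and 2220.2 at gd14 (log2 change 1.23 ± 0.16 SE, 2.34-fold, adjusted p = 0.00128), and Cxcr4, its signalling receptor in migrating germ cells and leukocytes, had 898, 785 and 413 at gd12 and 131, 178 and 274 at gd14 (log2 change -1.75 ± 0.32 SE, 3.35-fold, adjusted p = 0.00757). Of 26 genes of glycolysis and low oxygen 5 rose (19.2%) and 4 fell (15.4%), against 6.47% and 6.93% of all genes. With single arrays left out the higher count was 1 to 4.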
